A study of Lycium barbarum and Lycium ruthenicum with 30 samples.

Results

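The 196 unigenes described here were detected in every library of one code and in none of the other, although each belongs to an assembly component that also holds a unigene found in all libraries. They had an FPKM (a read level corrected for transcript length and library size) of 1 or more in all 15 libraries coded B and were listed at 0 in all 15 libraries coded R, and their component holds another unigene with an FPKM of 1 or more in all 30 libraries. Of 326276 unigenes, 1277 were at 1 or more in all B and at 0 in all R libraries, and the 196 are all of those that met the condition on the component. They are called B-only unigenes. The shared unigene of a component with the highest mean over the 30 libraries is called the partner. Presence in B and absence in R is what chose the 196, so that contrast is a description without a test.

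The libraries came from wild type fruit of Lycium barbarum (LB, red fruit) and Lycium ruthenicum (LR, black fruit) at 5 stages, S1 (young) to S5 (mature), with 3 libraries per species and stage from different trees. LR fruit came from wild shrubs and LB fruit from cultivated shrubs of a nursery elsewhere, and the effects of species and of site cannot be told apart. The codes conflict: in the supplementary material of the study B stands for LR and R for LB, and the sample titles assign them the other way round. For chalcone synthase (TRINITY_DN73389_c1_g2), an enzyme of flavonoid synthesis, the supplementary material prints under LR the same values that the deposited table holds under B, and under LB those held under R, which makes B the black-fruited LR for these columns. This gene had an S5 mean of 3414 ± 1606 in B and of 39.3 ± 8.99 in R (SD, n = 3). Leucoanthocyanidin dioxygenase (TRINITY_DN68066_c0_g2), an enzyme of the later path to anthocyanins, the pigments of black fruit, was at 2948 ± 706 and 1.31 ± 0.27. Libraries are named here by their code.

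De novo assembly joins overlapping reads into transcripts without a genome. Transcripts that share stretches of sequence fall into one component, given by the DN and c numbers of an identifier, and the g number separates gene-level groups within it. A component can hold members of a gene family, diverged alleles or fragments of a gene, and the identifiers do not tell these apart. FPKM is a level per length, and unigenes of a component are set side by side here on that scale. Their lengths were not available. How reads of shared sequence were divided among them is unknown, so the size of a ratio or share within a component is a description.

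Between 46024 and 62882 unigenes per B library and between 52460 and 84959 per R library were at 1 or more. In B, 28 abundant unigenes (mean of 10000 or more, with a mean in R under 1% of it, none among the 196) took on average 32.6, 33.8, 52.8, 57.5 and 33.7% of all FPKM from S1 to S5. Read counts were not analysed here. The 81823 unigenes above 0 in exactly 1 library had a median FPKM of 5.30 there (quartiles 2.48 and 11.1). How many fragments lay behind such values is unknown.

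The 196 unigenes lay in 185 components, of which 175 held 1 of them, 9 held 2 and 1 held 3. These components had a median of 5 unigenes (2 to 13), beside 3 in the 13916 other components of 2 or more unigenes with a partner. The mean of a B-only unigene over the B libraries ran from 1.87 to 189 (quartiles 4.73, 7.56 and 15.8); 6 were at 100 or more and 55 under 5. Relative to the partner in B the median ratio was 0.58 (quartiles 0.27 and 1.32). The ratio was under 0.25 for 42, between 0.25 and 1 for 93, between 1 and 4 for 47 and over 4 for 14. A B-only unigene carried from 1.27 to 97.1% of the FPKM of its component in B.

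At the edge of the rule, TRINITY_DN80313_c0_g4 was inside with a lowest B value of 1.00, and TRINITY_DN89606_c0_g5 was outside with 0.99 in 1 B library and a mean of 9.47. TRINITY_DN88554_c2_g4, at a mean of 15.1 in B, was outside through a value of 0.04 in 1 R library. In all, 46 unigenes of shared components missed the rule through 1 B library and 37 through 1 R library.

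The B-only unigene of highest mean, TRINITY_DN100400_c3_g4, shares its component with TRINITY_DN100400_c3_g2, listed as caffeic acid 3-O-methyltransferase, an enzyme that methylates intermediates of lignin synthesis. Its FPKM was 153, 189.98 and 402 at S1, 168, 322 and 308 at S2, 103, 85.7 and 637 at S3, 221, 34.3 and 77.3 at S4 and 36.3, 16.9 and 88.02 at S5. All S5 libraries lay below all S1 libraries, and S3 replicate 3 was the highest of the 15. The difference from S1 to S5 was -2.56 ± 0.83 (SE, log2(FPKM + 0.5) scale) and was not called (limma adjusted p = 0.055). A limma fit of all 30 libraries called it (adjusted p = 0.0041). That fit adds R libraries where the unigene is at 0 by the rule, without spread, so this call is not read as a result. The methyltransferase, its partner, had stage means of 93.3, 90.4, 87.5, 25.3 and 17.2 in B and 191, 93.9, 113, 89.2 and 27.04 in R. Its S3 values in B, 22.1, 17.8 and 223, showed the same high replicate, and the pair had r = 0.97 over the 15 B libraries, the highest of the 196.

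TRINITY_DN100937_c5_g2 was at 159, 191 and 138 at S1, 211, 189 and 169 at S2, 108, 184 and 169 at S3, 157, 98.7 and 69.04 at S4 and 229.52, 163 and 203 at S5. Its stage means, 163, 189.81, 154, 108 and 199, and those of its partner g1, 336, 366, 285, 225 and 454, were in the same order, lowest at S4 and highest at S5. TRINITY_DN83577_c0_g2, with 97.1% of the FPKM of its component in B, was at 113, 107 and 223 at S1, 207, 136 and 226 at S2, 88.9, 52.1 and 161 at S3, 160.04, 240.41 and 93.96 at S4 and 155, 156 and 157 at S5. Its S5 libraries were close together and lay within the spread of S2 and S4, and its partner had a mean of 4.53 in B and 6.07 in R.

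TRINITY_DN99713_c1_g2 was at 119.86, 165 and 164 at S1, 127, 120.4 and 180.39 at S2, 86.3, 60.8 and 360.32 at S3, 108, 58.7 and 81.1 at S4 and 157, 104 and 212 at S5. S3 replicate 3 again stood above the others of its stage, as it did for the partner g5 (19.7, 18.9 and 106). That partner had S1 means of 61.1 in B and 38.4 in R, and S5 means of 53.97 and 334.

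TRINITY_DN74476_c1_g4 was at 141, 130.1 and 129.7 at S1, 122, 109 and 108 at S2, 71.1, 80.7 and 131 at S3, 111, 93.6 and 69.3 at S4 and 135, 146 and 135 at S5, with stage means of 91.4 to 139. Its partner g3 had stage means of 18.2 to 34.5 in B and 74.3 to 143 in R. TRINITY_DN95484_c1_g2 was at 109.8, 204 and 88.5 at S1, 181, 245 and 106 at S2, 44.96, 42.9 and 90.0 at S3, 102, 102 and 55.9 at S4 and 71.3, 84.9 and 56.3 at S5. All its S5 libraries lay below all S1 libraries, but the difference of -0.84 ± 0.43 was not called (limma adjusted p = 0.24).

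**Figure D1:**
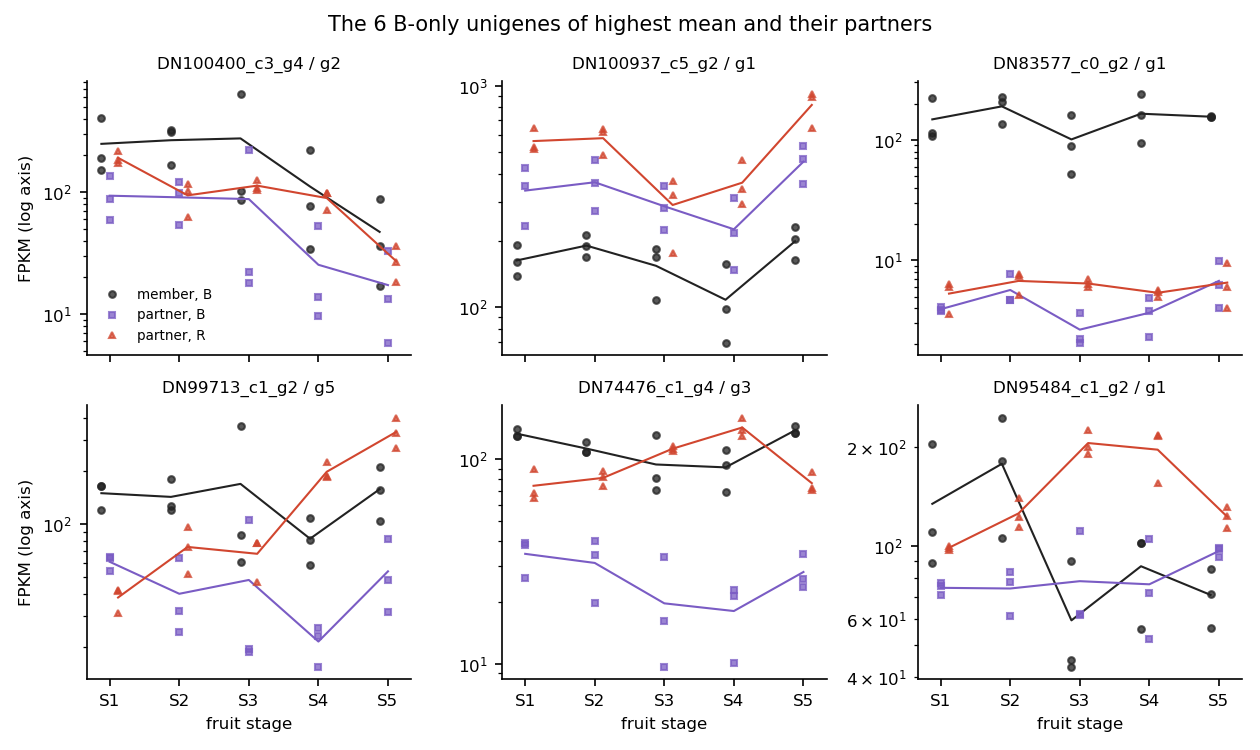
FPKM on a log axis by fruit stage for the 6 B-only unigenes of highest mean (black circles) and their partners in B (purple squares) and R (red triangles), with 1 point per library and lines through the means of 3. TRINITY_DN83577_c0_g2 lay far above its partner (means of 152 and 4.53 in B), and S3 replicate 3 was the highest S3 library for 5 of the 6.

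Within a stage, replicates of a B-only unigene had a median SD of 0.51 on the log2(FPKM + 0.5) scale over all 196. For the 29136 unigenes at 1 or more in all B libraries it was 0.47. It was also 0.47 for the 12979 of them with a mean between the quartiles of the 196, a narrower range of level. S3 replicate 3 held the highest of the 3 values for 124 of the 196 and S4 replicate 1 for 133. The median deviation of these libraries within their stage was 0.29 and 0.36 for the 196, beside 0.50 and 0.39 over all unigenes compared. The counts are therefore not read as a trait of the 196. In these libraries the abundant unigenes took 36.2 and 44.2% of the FPKM, beside 61.6 and 60.4% and 61.2 and 66.99% in the others of the stage. Their part in single values was not tested.

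Few unigenes of the whole series carry a name in the lists of the study, which were chosen on these libraries. Of 326276 unigenes 608 were listed there, and 2 of them were among the 196. Of the 185 components, 6 held a listed unigene (7 unigenes in all, the methyltransferase among them). These counts are a description. TRINITY_DN74949_c3_g2 was tied to phosphoglycerate kinase, an enzyme of glycolysis and carbon fixation, only through a matching entry in the supplement, and the name is not certain. The paper reports that gene as higher in LR from S1 to S3 and not as differing later. This unigene was at 0 in R at S4 and S5 too, with B means of 27.4 and 52.2. It was at 49.6, 59.8 and 46.6 at S1, 31.96, 57.99 and 58.3 at S2, 23.1, 24.4 and 60.7 at S3, 36.6, 27.4 and 18.2 at S4 and 57.5, 46.8 and 52.4 at S5. Its S1 and S5 libraries overlapped (difference 0.01 ± 0.39, limma adjusted p = 1.00). Its partner g1 had stage means of 18.5 to 33.2 in B and 45.8 to 57.1 in R.

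TRINITY_DN88532_c0_g5, listed under galactose metabolism, was at 22.1, 17.9 and 15.8 at S1, 26.04, 28.4 and 17.5 at S2, 8.50, 16.02 and 19.2 at S3, 11.8, 7.15 and 4.55 at S4 and 4.21, 1.86 and 6.07 at S5. All S5 libraries lay below all S1 libraries, and the difference was -2.18 ± 0.43 (limma adjusted p = 0.0036). The call was lost without S1 replicate 1, S1 replicate 2, S5 replicate 1 or S5 replicate 2 (adjusted p of 0.018, 0.014, 0.012 and 0.020) and with only the 6 libraries compared (0.018). Its partner g4 had means of 33.7 at S1 and 14.7 at S5 in B, and its difference of -1.41 ± 0.63 was not called. TRINITY_DN94241_c2 held g4 and the partner g7, both listed under plant hormone signal transduction. Their means in B went from 25.6 and 22.5 at S1 to 2.30 and 1.75 at S5, and those of the B-only g2 ranged from 5.06 to 6.52.

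Changes during ripening were tested over the 15 B libraries, a contrast that the rule did not use. Limma called none of the 196 between neighbouring stages, beside 0.00343% of the 29136 unigenes at 1 or more in all B libraries for S1 to S2, 0.450% for S2 to S3, 0.00% for S3 to S4 and 0.134% for S4 to S5. At an unadjusted p under 0.05 there were 6, 31, 12 and 58 of the 196 in these steps (3.06, 15.8, 6.12 and 29.6%), beside 5.92, 20.2, 4.15 and 40.7% of those unigenes. Without S3 replicate 3, 2 were called for S4 to S5. For refits with other libraries, here and below, the share of all unigenes or pairs called was not computed. Their counts are therefore a description. With all 30 libraries in the fit 7 were called for S2 to S3 and 15 for S4 to S5. That fit adds R libraries at 0 by the rule, without spread, so these counts are not read as a result. The median difference of the 196 was -0.46 for S2 to S3 and 0.60 for S4 to S5 (-0.48 and 0.70 over the 29136). After median-of-ratios scaling it was 0.04 and -0.06 (0.03 and 0.01). In bulk RNA of fruit, fewer cells of a type and less RNA per cell cannot be told apart.

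From S1 to S5, 7 of the 196 were called (3.57%, beside 7.27% of the 29136), 3 higher (3.36% of the 29136) and 4 lower (3.92%). The count was 4 without S1 replicate 1, S1 replicate 2, S5 replicate 1 or S5 replicate 2. It was 12 with all 30 libraries in the fit, which is not read as a result for the same reason. TRINITY_DN93701_c1_g3 was at 13.8, 3.48 and 7.40 at S1, 24.96, 10.5 and 10.4 at S2, 12.4, 11.6 and 21.8 at S3, 47.9, 36.8 and 24.9 at S4 and 92.5, 99.4 and 69.2 at S5. All S5 libraries lay above all others, and the difference was 3.50 ± 0.47 (limma adjusted p = 0.00022), while that of its partner, 0.57 ± 0.47, was not called. TRINITY_DN64869_c1_g2 was at 58.5, 40.5 and 53.5 at S1, 58.9, 64.3 and 51.1 at S2, 92.3, 76.6 and 108 at S3, 134, 99.8 and 68.1 at S4 and 214, 243 and 138 at S5. It too was highest in the S5 libraries (1.93 ± 0.31, limma adjusted p = 0.00079), and its partner was not called (0.13 ± 0.35).

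TRINITY_DN70891_c5_g2 was at 12.2, 13.96 and 9.22 at S1, 15.6, 16.3 and 5.31 at S2, 3.65, 5.04 and 2.04 at S3, 2.21, 1.79 and 1.46 at S4 and 1.05, 1.86 and 1.71 at S5. All libraries of S3 to S5 lay below all of S1 and S2, and the difference was -2.60 ± 0.43 (limma adjusted p = 0.00090). Its partner, at means of 8.21 at S1 and 8.85 at S5 in B, was not called. With TRINITY_DN88532_c0_g5 these had the largest called changes in each direction. The other 3 were TRINITY_DN76690_c1_g3 (stage means of 8.53 at S1 and 21.7 at S5), TRINITY_DN75803_c6_g3 (17.9 and 5.27) and TRINITY_DN78214_c2_g3 (20.1 and 6.72).

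By the F test over 5 stages, 7 of the 196 depended on stage (3.57%, beside 10.3% of the 74358 unigenes tested). The 74358 include unigenes under 1 in some B libraries, which the rule kept out of the 196, so these shares are not like for like. The count of the 196 was 19 without S3 replicate 3 and 4 without S5 replicate 1 or S5 replicate 2. It was 24 with all 30 libraries, again not read as a result. The share of all unigenes in these refits was not computed. From S1 to S5, the numbers of the 196 with their highest mean in that stage were 45, 55, 11, 6 and 79. These are 23.0, 28.1, 5.61, 3.06 and 40.3%, beside 30.8, 21.0, 3.11, 2.45 and 42.7% of the 29136. The highest stage mean was a median of 2.05 times the lowest and at most 10.6 times.

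The ratio of a B-only unigene to its partner within a library is little touched by the scaling of the library. Limma called no ratio between neighbouring stages, beside 0.0184, 0.368, 0.00 and 0.129% of 5441 pairs of a unigene and its partner. At an unadjusted p under 0.05 there were 21, 24, 17 and 28 of 196 (10.7, 12.2, 8.67 and 14.3%, beside 8.03, 11.9, 6.89 and 20.1% of pairs), and without S5 replicate 3, 3 ratios were called for S4 to S5. From S1 to S5, 15 ratios were called (7.65%, beside 7.79% of pairs), 7 higher (3.36% of pairs) and 8 lower (4.43%). The count was 8 without S1 replicate 2 and 7 without S5 replicate 1. Over all stages 11 ratios depended on stage (5.61%, beside 7.81%).

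Of the 15 called ratios, 3 belonged to B-only unigenes also called in level. In TRINITY_DN84730_c3 it was the partner g1 that was called, from 25.4, 6.54 and 4.33 at S1 to 665, 702 and 822 at S5 in B. The B-only g4 was at 7.50, 6.14 and 7.38 and then at 6.63, 3.70 and 4.58. The ratio differed by -6.73 ± 1.02 (limma adjusted p = 0.00057), the partner by 6.24 ± 0.69 and the B-only unigene by -0.49 ± 0.60, which was not called.

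In TRINITY_DN102018_c4 the partner g1 was at 25.3, 23.5 and 25.8 at S1 and 144, 126 and 148 at S5. The B-only g4 was at 53.8, 55.9 and 41.1 at S1 and 49.8, 41.3 and 34.2 at S5. Only the partner was called (2.46 ± 0.25), and the ratio differed by -2.73 ± 0.26 (limma adjusted p = 1.4e-05). In TRINITY_DN94241_c2 the partner g7 was at 23.5, 24.1 and 19.9 at S1 and 2.12, 1.25 and 1.87 at S5. The B-only g2 was at 5.04, 4.48 and 6.89 at S1 and 8.64, 6.36 and 4.56 at S5. Here the partner was called lower (-3.37 ± 0.34) and the ratio differed by 3.58 ± 0.41 (limma adjusted p = 6.3e-05).

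In TRINITY_DN93939_c80 the partner g1 was at 290.48, 261 and 76.3 at S1 and 18.1, 8.96 and 17.7 at S5. The B-only g3 was at 57.3, 28.02 and 86.4 at S1 and 107, 84.1 and 67.4 at S5. Neither was called in level, whereas the ratio was (4.32 ± 0.93, limma adjusted p = 0.0063). That call was lost without S1 replicate 1, S1 replicate 2 or any 1 of the S5 replicates (adjusted p of 0.011 to 0.037).

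**Figure D2:**
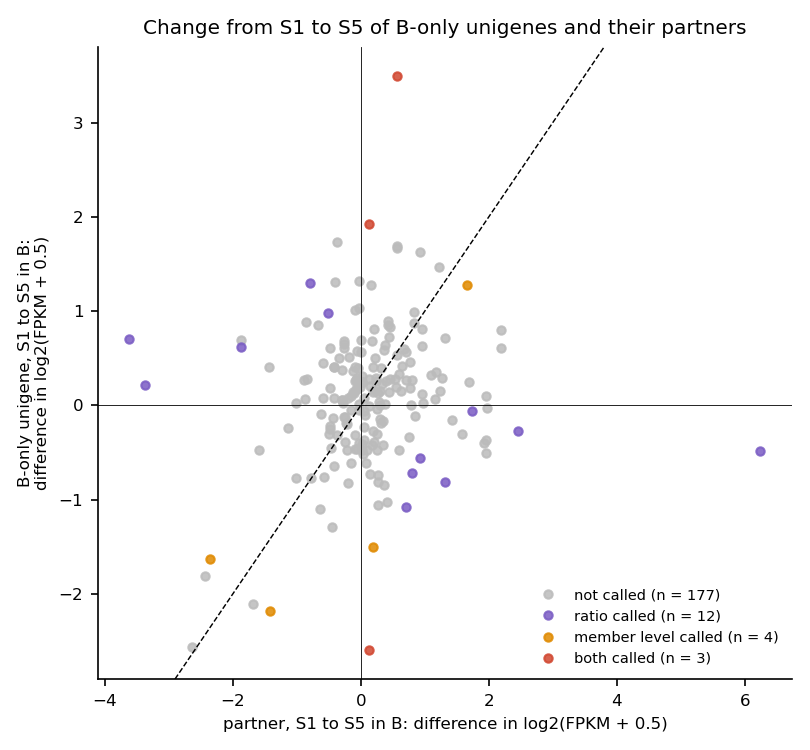
Difference from S1 to S5 in B on the log2(FPKM + 0.5) scale, for each of the 196 B-only unigenes (vertical axis) against its partner (horizontal axis). Colours mark pairs called in the ratio, in the level of the B-only unigene or in both (3 pairs), and on the dashed line both change alike.

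Over the 15 B libraries, log2(FPKM + 0.5) of a B-only unigene and its partner had a median Pearson r of 0.43 (quartiles 0.19 and 0.60, range -0.39 to 0.97). In the 5245 other pairs the median was 0.72 (quartiles 0.47 and 0.87). For unigenes whose mean lay between the quartiles of the 196, the medians were 0.46 for 98 B-only unigenes and 0.70 for 2488 other pairs. An r of 0.8 or more was found for 15 of the 196 (7.65%) and 38.5% of the other pairs, and an r under 0 for 23 (11.7%) and 6.04%. The points share libraries and their scaling, and these values are a description.

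**Figure D3:**
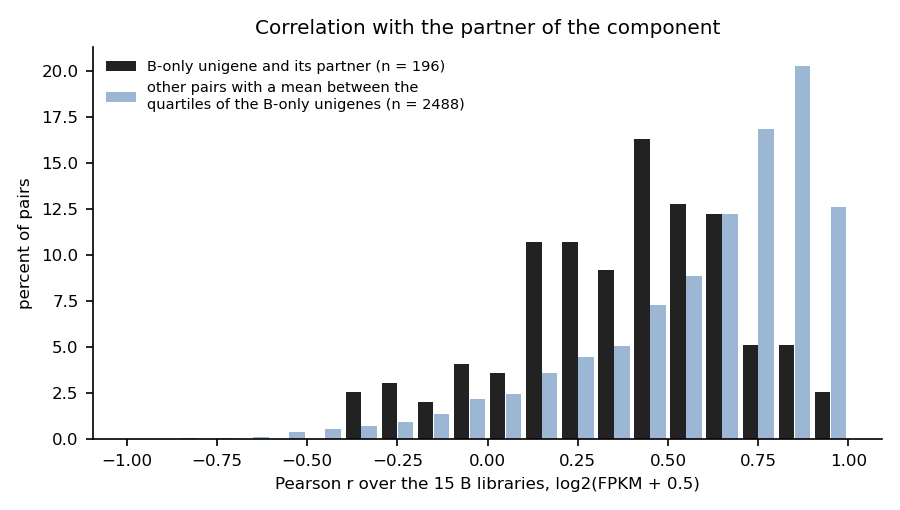
Percent of pairs by Pearson r over the 15 B libraries in bins of 0.1, for all 196 B-only unigenes with their partners (black). Blue bars are 2488 other pairs whose unigene had a mean between the quartiles of the 196. The fullest bin is 0.4 to 0.5 for the black bars and 0.8 to 0.9 for the blue ones.

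Whether the shared unigene differed between B and R was tested for the 185 partners, of which the rule asked only for an FPKM of 1 or more everywhere. As deposited, 47, 53, 78, 90 and 61 partners were called from S1 to S5. These are 25.4, 28.6, 42.2, 48.6 and 33.0%, beside 24.6, 27.2, 45.7, 49.6 and 31.1% of the 22474 unigenes at 1 or more in all 30 libraries. Of all 185 partners, 9, 12, 12, 10 and 13 were called higher in B (beside 3.63, 3.42, 3.48, 2.59 and 6.63% of the shared unigenes). Another 38, 41, 66, 80 and 48 of the 185 were called lower (beside 21.0, 23.8, 42.2, 47.0 and 24.5%). The median difference of the partners was -0.41, -0.59, -0.79, -1.01 and -0.47. With only the 6 libraries of a stage in the fit, 27, 30, 34 and 36 partners were called at S2 to S5.

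After median-of-ratios scaling the medians were 0.16, -0.06, -0.01, -0.003 and -0.02, and 42, 37, 58, 67 and 57 partners were called. These are 22.7, 20.0, 31.4, 36.2 and 30.8%, beside 17.0, 19.9, 32.1, 27.9 and 28.6% of the shared unigenes. Of all 185 partners, 22, 20, 30, 34 and 27 were called higher in B (beside 9.19, 8.85, 12.6, 12.4 and 14.1% of the shared unigenes). Another 20, 17, 28, 33 and 30 of the 185 were called lower (beside 7.79, 11.0, 19.5, 15.5 and 14.5%). This scaling sets the median over unigenes present in all libraries near 0, so the balance of higher and lower partners after it is not read as a result. As deposited, 4 partners were higher and 17 lower at every stage, and 62 were called at none. After scaling 10 were higher and 6 lower at every stage. The shares of the shared unigenes with such calls were not computed, so these counts over all stages are a description.

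**Figure D4:**
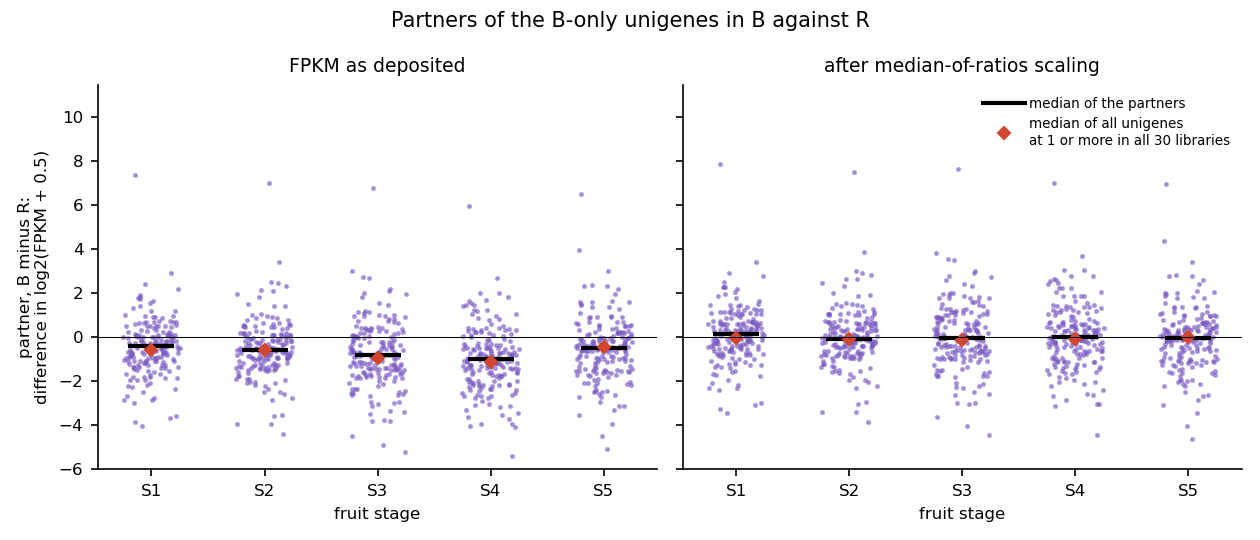
Difference B minus R on the log2(FPKM + 0.5) scale by stage for the 185 partners (purple points), as deposited (left) and after median-of-ratios scaling (right). Black lines are the medians of the partners and red diamonds those of the 22474 shared unigenes, and 1 partner lies between 5.97 and 7.38 at every stage on the left.

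That partner, TRINITY_DN75584_c2_g2, was at 579, 661 and 488 in B and 1.90, 3.68 and 3.54 in R at S1, and at 1044, 676 and 866 in B and 10.3, 9.78 and 6.73 in R at S5. The codes were far apart at every stage, with differences of 7.38, 7.01, 6.80, 5.97 and 6.52 (SE 0.36 each, limma adjusted p of at most 2.9e-12). The B-only g5 of its component was at 39.8, 39.4 and 116 at S1, 89.6, 98.97 and 29.01 at S2, 25.04, 27.1 and 76.3 at S3, 96.1, 14.3 and 77.03 at S4 and 324, 142 and 136 at S5. A further shared unigene, g1, had stage means of 70.5 to 228 in B and 62.8 to 325 in R.

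TRINITY_DN97888_c1_g1 came next from S1 to S4, with 18.7, 31.4 and 21.4 in B and 4.19, 1.93 and 2.21 in R at S1 and differences of 2.92, 3.42, 3.02 and 2.70. At S5 it was TRINITY_DN79208_c0_g1, at 32.8, 94.5 and 35.4 in B and 2.72, 3.75 and 1.65 in R (3.97 ± 0.52, limma adjusted p = 1.0e-06).

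Among partners lower in B, TRINITY_DN93939_c80_g1 was at 290.48, 261 and 76.3 in B and 2266, 3843 and 2991 in R at S1 (-4.04 ± 0.77, limma adjusted p = 0.00014). TRINITY_DN81113_c9_g1 was at 2.65, 3.23 and 2.59 in B and 83.2, 152 and 109.86 in R at S5 (-5.08 ± 0.52, limma adjusted p = 1.7e-08). The B-only g2 of that component had an S5 mean of 9.59, above its partner in B. TRINITY_DN84730_c3_g1 at S2 (-4.40 ± 0.68), TRINITY_DN82641_c4_g2 at S3 (-4.89 ± 0.44) and TRINITY_DN87282_c0_g1 at S5 (-4.50 ± 0.55) were also among the 2 largest of a stage. For all partners named since TRINITY_DN75584_c2_g2 the libraries of the codes did not overlap at these stages, and the calls held after scaling.

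Of the partners of the leading 6, TRINITY_DN99713_c1_g5 was called lower in B at S4 (-3.20 ± 0.47) and S5 (-2.70 ± 0.47), also after scaling. TRINITY_DN74476_c1_g3 was called lower at S2 to S5 (-1.42, -2.66, -3.02 and -1.44), and after scaling at S3 and S4 but not at S2 (-0.87) or S5 (-0.96).

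Summed over all unigenes of a component, the log2 ratio of B to R had a median of 0.01 in the 185 components, while that of the partner alone was -0.67. In the 13916 other components both medians were -0.76. The sum holds the B-only unigene, which is present in B by the rule, so this is a description.

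The opposite pattern, 1 or more in all R and 0 in all B libraries, was shown by 1210 unigenes, of which 252 lay in 242 components with a partner. Of the 185 components, 13 (7.03%) held such an R-only unigene, which is 5.37% of the 242, and 1.65% of the other components did. A wider class adds unigenes with a mean of 1 or more in R and at least 10 times that in B. With it, 52 of the 185 (28.1%) held such a unigene, beside 18.3% of the other components. The other components are smaller, with a median of 3 unigenes against 5.

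In TRINITY_DN100937_c5 the R-only g4 was at 751, 738 and 880.1 at S1 and 1110.25, 689 and 1093 at S5 in R. Its stage means, 789.93, 559.95, 299, 438 and 964, were highest at S5, like those of the B-only g2 in B. In TRINITY_DN100298_c2 the B-only g3 had stage means of 97.9, 100.18, 71.2, 62.7 and 117 in B, and the R-only g4 of 16.5, 26.6, 68.9, 47.6 and 18.7 in R. The former was highest at S5 and the latter at S3. In TRINITY_DN71597_c2 the B-only g2 (mean 22.4 in B) stood above the R-only g4 (4.06 in R). In TRINITY_DN93965_c0 the B-only g3 had a mean of 14.5 and the R-only g4 of 10.7, and the partner g1 of 3.36 in B and 21.7 in R. Over all 14 R-only unigenes, the log2 ratio of the B-only mean in B to the R-only mean in R ran from -3.60 (TRINITY_DN94197_c2) to 2.46 (TRINITY_DN71597_c2).

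**Figure D5:**
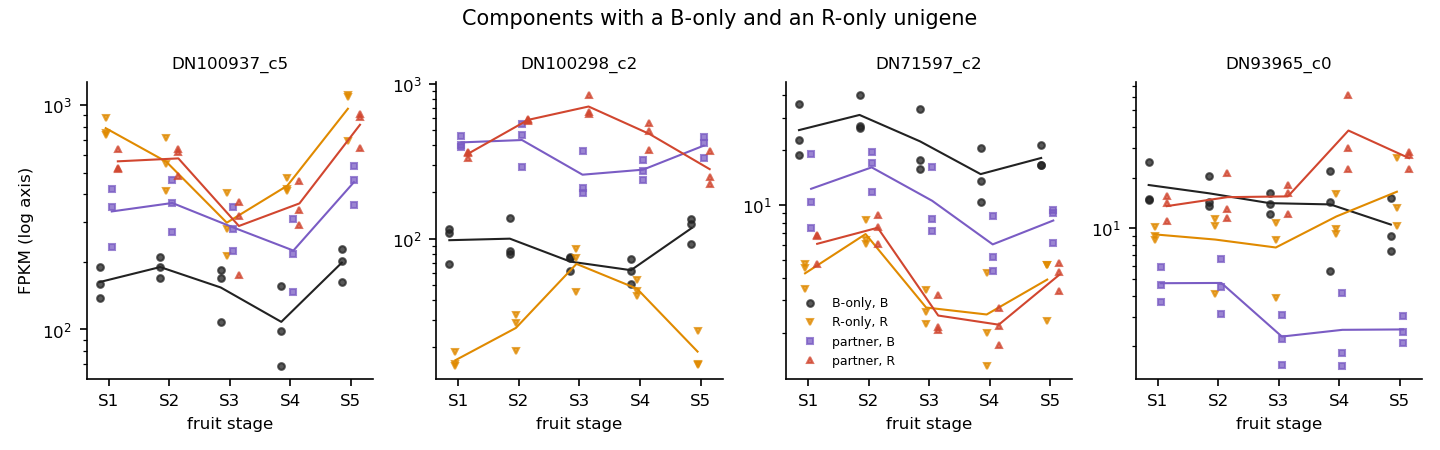
FPKM on a log axis by fruit stage in the 4 components of highest B-only mean among the 13 that also hold an R-only unigene, with the B-only unigene in B (black), the R-only unigene in R (orange) and the partner in B (purple) and R (red). Points are libraries and lines join the means of 3, and of the 4 R-only unigenes the one of TRINITY_DN100298_c2 is highest at S3.

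TRINITY_DN84709_c3, named for its number of members, held 3 B-only unigenes, g2, g3 and g4, with stage means of 2.98 to 7.76, 4.02 to 7.31 and 5.10 to 8.95 in B. All 3 had their lowest mean at S4, though for g3 it was near that of S3 (4.02 ± 0.91 and 4.04 ± 2.69, SD, n = 3). Over the 29136 unigenes at 1 or more in all B libraries, the median also rose from S4 to S5 as deposited (0.70). The low S4 means are therefore not read as a trait of this component. The partner g1 of the 3 went from a mean of 23.95 at S1 to 93.3 at S5 in B and from 167 to 17.2 in R.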

How the data were processed

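RNA of fruit was sequenced in 30 libraries. The reads were trimmed with Cutadapt, and the unigenes carry Trinity identifiers; the submitters' processing notes name Bowtie2 without a version. The authors deposited one table of FPKM, rounded to 2 decimals. A value of 0 is called listed at 0, and the depth behind a value is unknown.

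Stages were compared with limma 3.58.1 in R 4.3.3 (moderated statistics with a mean trend and robust variances) on log2(FPKM + 0.5), a scale that understates changes of low unigenes. The fit held the 15 B libraries and the 74358 unigenes at 1 or more in at least 3 of them. Log2 ratios to the partner were fitted over 5441 pairs, and partners in B and R over all 30 libraries and 111217 unigenes. Two-sided p-values were Benjamini-Hochberg adjusted over all features of a comparison. Called means an adjusted p below 0.01 together with an absolute log2 difference of at least 1. Stage dependence needed an F test below the same limit, with stage means explaining an R2 of at least 0.7. The code was tested on simulated data.

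Members, lists and tests were chosen with earlier results of these data known. Named by rule were the 6 of highest mean, per comparison up to 2 called in each direction with the largest change and no overlap, components with a unigene listed by the study (pathways by up to 2 examples), and 4 components with a unigene for each code. Others named were chosen after their values were seen.

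Replicate numbers were checked for pairing by correlating deviations from group means. In 9 of 10 pairs of B stages all 3 correlations were above 0.1, with S1 and S5 the exception (lowest 0.092), and between B and R this held at no stage. Alternatives were other offsets, filters, scaling, libraries in the fit, a replicate block, another partner, other limits of the rule and leaving out each library.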

Additional observations from a re-analysis of the deposited data

How the results depend on the processing

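With all 30 libraries in the fit, which adds libraries where the 196 are at 0 by construction, 12 unigenes were called for S1 to S5, 7 for S2 to S3 and 15 for S4 to S5, and 24 depended on stage. With only the 6 libraries compared, 27, 30, 34 and 36 partners were called at S2, S3, S4 and S5. With the lower limit in B raised to 2, the rule found 119 unigenes, and 295 with a partner at 1 or more in at least 25 libraries. Leaving out 1 library gave 4 to 8 called unigenes and 7 to 16 called ratios for S1 to S5, 0 to 2 and 0 to 3 for S4 to S5, and 4 to 19 unigenes dependent on stage. The S1 to S5 difference, not called in any of these, ran from -0.031 (without S1 replicate 2) to 0.50 for TRINITY_DN83577_c0_g2. For TRINITY_DN99713_c1_g2 it was -0.12 without S1 replicate 1 and ran from -0.21 (without S5 replicate 3) to 0.30. With the replicate block, 8 unigenes and 20 ratios were called for S1 to S5, 8 and 15 depended on stage, and 48, 55, 75, 89 and 62 partners were called; none of these totals moved by more than 1.5 times. Offsets and filter moved no total of calls by more than 1.5 times. Scaling, run for unigenes and partners, moved no total of theirs by more, but it moved the numbers of partners called higher and lower, such as 10 and 80 to 34 and 33 at S4. TRINITY_DN100400_c3_g4 was called with all 30 libraries (adjusted p = 0.0041). The R libraries have no spread for the 196, so calls of the 196 with all 30 libraries are not read as results. The cause of the other differences was not tested. Shares of all unigenes in refits with other libraries were not computed, so the counts from them are a description. Without read counts the precision of low FPKM is unknown.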
